A study of Mus musculus with 8 samples.

Results

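Collagen genes and the enzymes that cross-link, cut or protect the collagen matrix were followed in 8 mouse liver arrays. The members were all genes of the array table whose symbol is that of a collagen chain (Col), a matrix metalloproteinase (Mmp), a tissue inhibitor of metalloproteinases (Timp), a secreted ADAMTS protease or a lysyl oxidase (Lox, Loxl). They came to 91 of the 19321 genes on the array: 43 collagens, 21 metalloproteinases, 18 ADAMTS genes, 5 lysyl oxidases and 4 Timp genes. A gene with several probes was represented by the probe with the highest mean deposited intensity over the 8 arrays.

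Per the labels every mouse had received DMBA, a chemical carcinogen, when 4 to 5 days old, so the controls carry it too, and was then kept for 30 weeks on a normal or a high fat diet. The groups were normal diet liver (mice 117 and 120, n = 2), non-tumour tissue of high fat diet livers (mice 117, 186 and 1, n = 3) and tumour tissue of those same 3 livers (n = 3). The number 117 on normal diet belongs to another animal than the 117 on high fat diet. The labels used here give no strain or sex. Each array holds RNA of whole tissue, in which fewer cells of a type and less RNA per cell cannot be told apart.

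Fibrillar collagens, among them types I, III and V, form the banded fibres that accumulate in fibrotic liver, where activated stellate cells are a known source. Type IV chains build basement membrane, and many other collagens coat fibres or anchor cells. Lysyl oxidases cross-link collagen, metalloproteinases and ADAMTS proteases cut matrix proteins, and the Timp proteins bind and inhibit metalloproteinases.

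Levels are given as deposited normalized intensity, scaled so that every array has a median of 25 over its listed probes; a probe near the blank spots has no value and is called not listed. Between 81.8% and 88.5% of probes were listed per array, and normalized arrays correlated at 0.984 to 0.996 within groups and 0.919 to 0.983 between groups. All 18 hepatocyte markers on the array were listed on all 8 arrays. Of the 91 members 64 were listed on all 8 arrays, 15 on some and 12 on none. Those listed on none were Adamts12, Adamts18, Col11a1, Col19a1, Col6a6, Col9a2, Mmp16, Mmp1a, Mmp20, Mmp21, Mmp9 and Timp4. A gene was tested where it was listed on every array of at least 1 group, which 72 members passed: 36 collagens, 15 metalloproteinases, 14 ADAMTS genes, 4 lysyl oxidases and 3 Timp genes. Of these 72, 8 were not listed on every array. The filter favours a difference in a gene that passed only through the group where it is high. A call of such a gene is no independent sign of a difference. The 7 members listed on some arrays and not tested were Adamts6, Adamts19, Col23a1, Col25a1, Col6a4, Lox and Mmp25. Fold changes are on a log2 scale after an offset of 50 was added to the signal, which understates the change of dim genes, so the ratio of mean deposited intensity is given as well. A difference was called at an adjusted p below 0.05 (limma, 2-sided, Benjamini-Hochberg over 16800 genes). The p-values rest on the spread between the few arrays within groups, pooled over the groups. That fit takes the arrays as independent and leaves out that tumour and non-tumour tissue share a mouse.

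In tumour tissue the collagens that rose against the surrounding non-tumour liver were Col4a2, Col20a1, Col4a3, Col3a1, Col5a2 and Col8a2, and those that fell were Col5a3, Col6a2 and Col10a1. Among the enzymes Mmp14, Mmp11, Adamts5, Adamts17 and Loxl2 rose. None of the enzymes was called lower by limma without the mouse block, where 2 metalloproteinases and 3 ADAMTS genes had an unadjusted p below 0.05 in that direction. These are 11 members higher and 3 lower of 72 tested, or 19.4%, beside 12% of all genes called higher, 13.4% called lower and 25.4% called in either direction. The share called was thus below that of all genes, and the members' median log2 fold change was 0.02, beside -0.01 over all genes (-0.00091 and -0.03 with arrays scaled to the same median). Among the 64 members listed on all arrays 10 were higher and 3 lower, or 20.3%, beside 27.2% of all genes listed on all arrays. Since the tissues come in pairs from the same mice, mouse was also added as a block. Col5a3, Col10a1, Mmp11 and Loxl2 were then not called, and Mmp19 was called lower.

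Between high fat non-tumour liver and normal diet liver 2 members were called, Col3a1 and Col20a1, both higher. That is 2.78% of 72, beside 1.81% of all genes called higher, 2.03% called lower and 3.84% called in either direction. None was called lower by limma, where 4 had an unadjusted p below 0.05. With 2 normal diet arrays this comparison was the least stable: no member was called without normal diet 117, normal diet 120, non-tumour 117, non-tumour 1 or tumour 117, 1 was called without non-tumour 186, and 4 were called without tumour 186. Against normal diet liver the tumours had 17 members higher and 5 lower, 30.6% of 72, beside 12.9% of all genes called higher, 15% called lower and 27.8% called in either direction. Of the 17, Col4a3, Mmp13, Timp1 and Adamts9 were not listed on every normal diet array. Among the 64 members listed on all arrays 13 were higher and 5 lower, or 28.1%, beside 29.6% of all genes listed on all arrays, so the members' share was above that of all genes in the first count and below it in the second. The higher count was 6 without normal diet 117 and 8 without normal diet 120, and the lower count was 2 without normal diet 117. The members' median log2 fold change was 0.01 in non-tumour and 0.05 in tumour against normal diet, beside -0.005 and -0.01 over all genes (with the same median, -0.0037 and 0.02 for the members). The 3 comparisons share arrays, so their values are set side by side and are not independent.

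Over the 3 comparisons 24 members were called at least once, 2 in all 3 (Col3a1 and Col20a1), and 48 of those tested in none. When arrays were scaled to the same median in place of quantile normalization, 8 members were higher and 4 lower in tumour against non-tumour tissue and 15 higher and 10 lower in tumour against normal diet liver. With the scanner's local background in place of the blank spots no member was called in tumour against non-tumour tissue or in non-tumour against normal diet liver, and 1 (Col4a2, higher) in tumour against normal diet liver. The local background of a spot and its signal had a rank correlation of 0.902 to 0.96 within the arrays.

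**Figure D1:**
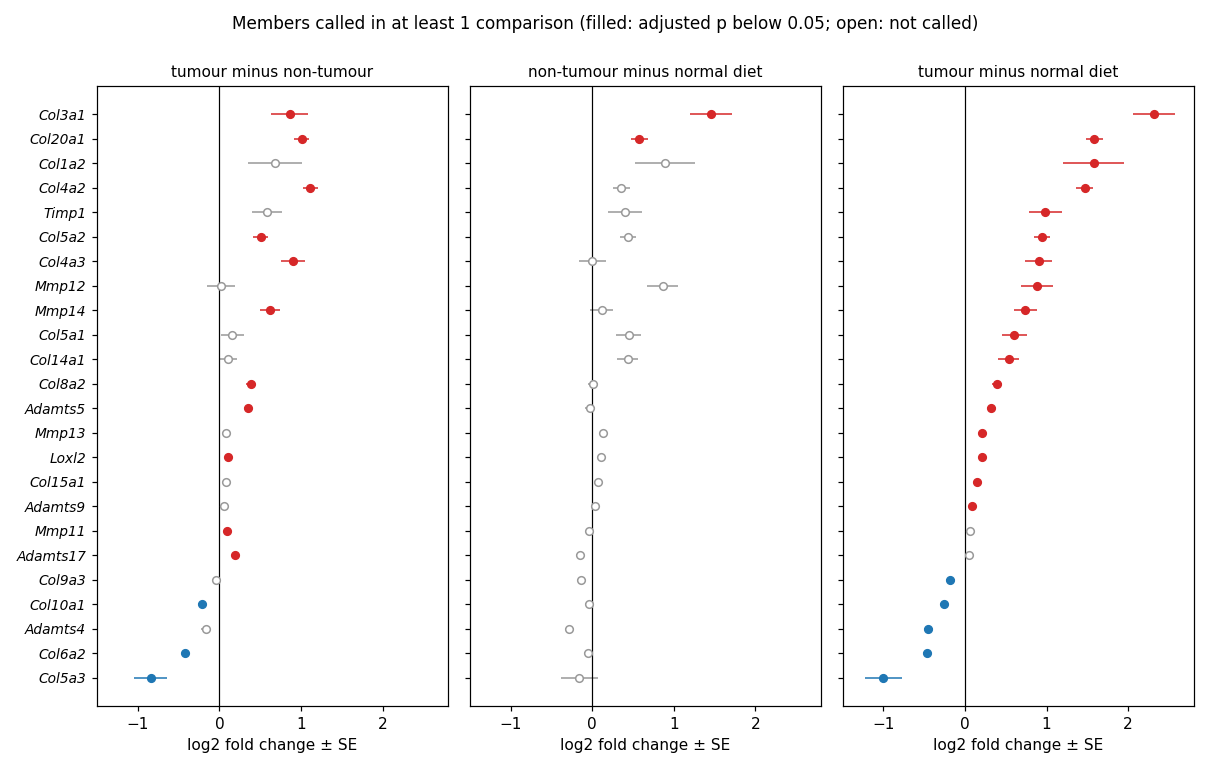
Log2 fold change with its standard error (horizontal axis) for the 24 members called in at least 1 comparison (rows, ordered by tumour minus normal diet), with 1 panel per comparison. Filled red points were called higher, filled blue points lower, and open grey points were not called. Col3a1 and Col20a1 are filled in all 3 panels, and Col5a3 lies lowest in tumour minus normal diet at -1.002.

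Col3a1, the single chain of type III collagen, was the fibrillar gene with the broadest set of calls. Its intensity was 85.5 and 126.2 on normal diet, 397.4, 369.9 and 294.0 in the non-tumour tissue of mice 117, 186 and 1, and 601.9, 676.3 and 440.5 in their tumours. The 3 groups did not overlap, and the order of the groups was normal diet, non-tumour, tumour. The log2 fold change was 1.45 ± 0.26 (SE, adjusted p = 0.0367) for non-tumour against normal diet, 0.86 ± 0.23 (adjusted p = 0.0367) for tumour against non-tumour and 2.31 ± 0.26 (adjusted p = 0.00158) for tumour against normal diet. The ratios of mean intensity were 3.34, 1.62 and 5.41. The tumour against non-tumour call ended under 11 of 19 alternatives (adjusted p 0.0116 to 0.955 over all), among them the absence of any array other than tumour 1: normal diet 117 (0.0547) or 120 (0.0563), non-tumour 117 (0.0661), 186 (0.0783) or 1 (0.11), and tumour 117 (0.106) or 186 (0.0852). The call for non-tumour against normal diet ended without normal diet 117 (0.215) or 120 (0.132), non-tumour 117 (0.101), 186 (0.103) or 1 (0.0573), or tumour 117 (0.0666), over a range of 0.00783 to 0.999. The log2 fold change for tumour against normal diet was past the threshold under every alternative except the local background (0.00011 to 0.921). The 250 bases before the RefSeq start of Col3a1, the fibrillar gene called in all comparisons, lie on the plus strand at chr1:45311288-45311537 (GRCm38.p6), and the capitals mark a match to the TATA box letters TATAAA, 117 bases before the start.
Col3a1: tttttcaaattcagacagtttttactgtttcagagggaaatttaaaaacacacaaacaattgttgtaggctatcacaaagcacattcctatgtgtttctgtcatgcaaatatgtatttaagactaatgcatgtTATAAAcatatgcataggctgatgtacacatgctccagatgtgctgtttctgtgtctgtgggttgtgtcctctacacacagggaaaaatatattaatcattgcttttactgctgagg

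Col5a2, a chain of the type V collagen that nucleates fibrils and the neighbour of Col3a1 on chromosome 1, was at 11.5 and 11.5 on normal diet, 37.4, 29.4 and 27.1 in non-tumour tissue and 50, 77.2 and 58.3 in tumours. Its groups did not overlap either. It rose in tumour against non-tumour tissue (log2 fold change 0.51 ± 0.09, adjusted p = 0.00876, intensity ratio 1.98) and against normal diet liver (0.95 ± 0.10, adjusted p = 0.00138, ratio 5.38). For non-tumour against normal diet the log2 fold change was 0.44 ± 0.10 (adjusted p = 0.0701), and it passed the threshold without tumour 186 (0.0344; 0.00995 to 0.999 over its alternatives). Col5a1, its partner chain, read 20.2 and 27.5 on normal diet, 47.1, 50.7 and 44.9 in non-tumour tissue and 50.7, 81.2 and 41.8 in tumours. Tumour and non-tumour values of Col5a1 overlapped, and only the tumour against normal diet difference was called (0.61 ± 0.16, adjusted p = 0.0308). It was not called without normal diet 117 (0.177) or 120 (0.0904), non-tumour 117 (0.0541) or 186 (0.0508), or tumour 117 (0.0686), over a range of 0.009 to 0.584.

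Col5a3, another type V chain, went the other way. Its intensity was 138.0 and 88.0 on normal diet, 74.8, 57.3 and 138.6 in non-tumour tissue and 20.9, 34.0 and 28.0 in tumours. Each tumour lay below all normal diet and non-tumour samples, while these 2 groups overlapped. It fell in tumour against non-tumour tissue (log2 fold change -0.84 ± 0.20, adjusted p = 0.0259, intensity ratio 0.306) and against normal diet liver (-1.002 ± 0.23, adjusted p = 0.0198, ratio 0.245). The first call ended when mouse was added as a block (adjusted p = 0.0551), and also without non-tumour 117 (0.0568), tumour 117 (0.079) or tumour 1 (0.0639), over a range of 0.0061 to 0.84. The second ended without normal diet 117 (0.134), normal diet 120 (0.0528) or tumour 117 (0.0571), over a range of 0.00396 to 0.684.

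The type I chains, which make up the most abundant collagen of scar tissue, were highest in 1 tumour. Col1a2 was at 26.0 and 32.4 on normal diet, 102.9, 95.2 and 79.3 in non-tumour tissue and 131.7, 292.5 and 97.4 in tumours. Every high fat diet sample lay above both normal diet samples, and the tumour of mouse 186 stood above all others. Tumour against normal diet was called (log2 fold change 1.58 ± 0.37, adjusted p = 0.0223, intensity ratio 5.95), whereas non-tumour against normal diet (0.89 ± 0.37, adjusted p = 0.249) and tumour against non-tumour (0.68 ± 0.33, adjusted p = 0.192) were not. The call ended without normal diet 117 (0.126) or 120 (0.0978), over a range of 0.00207 to 0.486. Col1a1 read 6.0 and 6.0 on normal diet, 10.3, 13.0 and 14.7 in non-tumour tissue and 16.6, 46.0 and 16.3 in tumours. These groups did not overlap, but no comparison of Col1a1 was called; tumour against normal diet had a log2 fold change of 0.47 ± 0.15 (adjusted p = 0.0676) and a ratio of 4.38. That difference passed the threshold without tumour 186 (0.0058) or tumour 1 (0.0455), over a range of 0.0058 to 0.525. The tumour of mouse 186 also held the highest value of Col5a1, Col4a1, Col6a1, Col8a1, Col15a1, Timp2 and Timp3. The summed intensity of 24 stellate cell and fibroblast markers was 1179.6 to 1246.7 on normal diet, 1405.6 to 1679.2 in non-tumour tissue and 1402.6 to 1973 in tumours, with 1973 in the tumour of mouse 186. Without Vim, the brightest of them in tumours, the sums were 1048.9 to 1166.1, 1239.5 to 1431.1 and 985.7 to 1457.8. No marker of the list was unlisted on all arrays. The part of these cells in the collagen values was not tested.

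**Figure D2:**
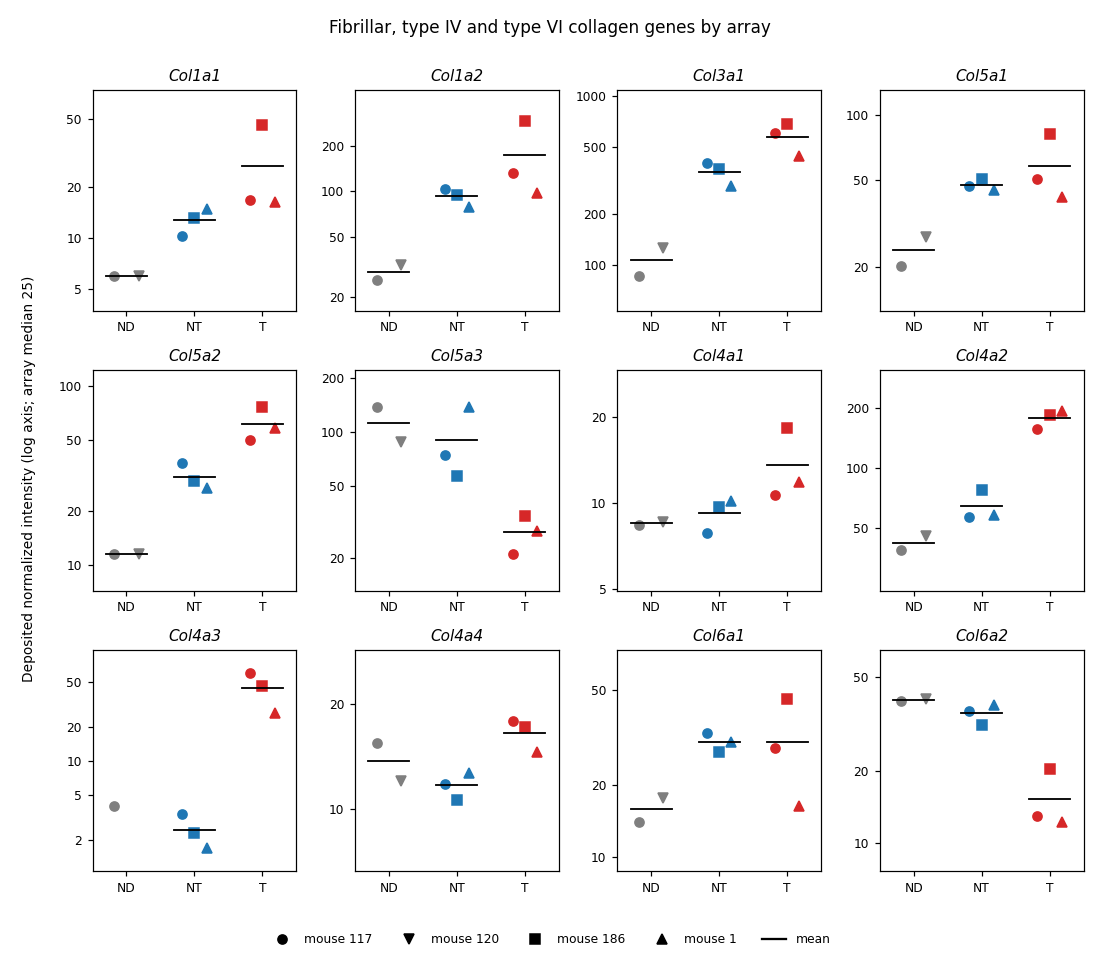
Deposited normalized intensity (vertical log axis, array median 25) of 12 fibrillar, type IV and type VI collagen genes on normal diet (ND, grey), in non-tumour (NT, blue) and in tumour tissue (T, red). Each point is 1 array, its shape gives the mouse number (117 on normal diet is another animal), and bars are means where all arrays of the group list the gene. Col5a3 and Col6a2 are lowest in tumours, whereas Col3a1, Col5a2 and Col4a2 are highest there, and the tumour of mouse 186 is the top square for Col1a1 at 46.0 and Col1a2 at 292.5.

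Among the 6 type IV genes tested, the tumours were higher in Col4a2 and Col4a3. Col4a2, which pairs with Col4a1 in the common basement membrane network, read 38.6 and 45.6 on normal diet, 56.6, 77.2 and 58.2 in non-tumour tissue and 155.9, 184.4 and 193.1 in tumours. Every tumour was above every non-tumour sample, and these above normal diet. It rose in tumour against non-tumour tissue (log2 fold change 1.11 ± 0.09, adjusted p = 0.000727, intensity ratio 2.78) and against normal diet liver (1.47 ± 0.10, adjusted p = 0.00038, ratio 4.22). For non-tumour against normal diet the log2 fold change was 0.36 ± 0.10 (adjusted p = 0.124). Col4a1 was at 8.4 and 8.6 on normal diet, 7.9, 9.7 and 10.2 in non-tumour tissue and 10.7, 18.3 and 11.9 in tumours. Its tumour values also lay above the others, by a ratio of 1.47 to non-tumour tissue, but were not called (log2 fold change 0.10 ± 0.04, adjusted p = 0.0936; against normal diet 0.13 ± 0.04, adjusted p = 0.0584). Col4a1 and Col4a2 are transcribed in opposite directions from 1 shared region of chromosome 8, and their RefSeq promoter windows of 250 bases before and 50 bases after the start have 78 bases in common. A stretch of 30 bases of the Col4a2 window, chr8:11312756-11312785 on the plus strand, reaches only in part into the shared bases. It is shown with a GC box (GGGCGG, here on the minus strand) and a CCAAT box in capitals. The GC box lies outside the shared bases, and the CCAAT box touches them only at its end.
Col4a1/Col4a2: gCCGCCCgaggagctccCCAATttgttggc

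Col4a3, a chain of the specialised network known from the kidney glomerulus, was near the blank level outside tumours. It was listed at 4.0 on 1 of 2 normal diet arrays, read 3.4, 2.3 and 1.7 in non-tumour tissue and stood at 59.0, 45.3 and 26.2 in tumours. The tumours stood far above both other groups, whose values lie so near the blank level that the intensity ratio of 17.6 to non-tumour tissue is imprecise. The log2 fold change was 0.90 ± 0.15 (adjusted p = 0.00661) against non-tumour tissue and 0.90 ± 0.17 (adjusted p = 0.00918) against normal diet liver, the latter resting on a group listed on 1 of 2 arrays. The latter call ended without normal diet 117 (0.056) or 120 (0.0666), over a range of 0.000388 to 0.309. Its head-to-head neighbour Col4a4 read 15.5 and 12, then 11.8, 10.6 and 12.7, then 17.9, 17.2 and 14.6 in the 3 groups, with no call (tumour against non-tumour 0.12 ± 0.04, adjusted p = 0.07). Col4a5, the X-linked partner chain, stood at 32.3, 30.0 and 18.8 in tumours, above all other samples (13.3 to 17.5), again with no call (0.27 ± 0.09, adjusted p = 0.0686). Col4a6, its neighbour, ran from 6.3 to 8.5 over all arrays.

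Of the type VI chains, which form beaded filaments around cells, Col6a2 fell in tumours while its neighbour and partner Col6a1 was not called. Col6a2 read 39.3 and 40.3 on normal diet, 35.7, 31.4 and 38.1 in non-tumour tissue and 13.0, 20.5 and 12.2 in tumours. All tumours lay below all other samples. The log2 fold change was -0.42 ± 0.05 (adjusted p = 0.00175, intensity ratio 0.434) against non-tumour tissue and -0.47 ± 0.05 (adjusted p = 0.00162, ratio 0.383) against normal diet liver. Col6a1 stood at 14.0 and 17.7, then 32.8, 27.4 and 30.2, then 28.5, 45.6 and 16.4. Its non-tumour values lay above normal diet and its tumours spread from 16.4 to 45.6, and no comparison was called (tumour against normal diet 0.31 ± 0.14, adjusted p = 0.165; 0.0147 without tumour 1, over a range of 0.0147 to 0.487). Col6a3 ran from 4.3 to 8.7 over all arrays, with no call.

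Among the remaining collagens Col8a2, a network-forming chain, read 82.9 and 76.8 on normal diet, 66.8, 74.0 and 82.2 in non-tumour tissue and 88.0, 108.7 and 117.5 in tumours. All tumours lay above all other samples, and it rose against non-tumour tissue (log2 fold change 0.38 ± 0.06, adjusted p = 0.00499) and normal diet liver (0.39 ± 0.06, adjusted p = 0.00626). On the deposited values in place of the recomputed ones neither was called (adjusted p = 0.0558 and 0.137; 0.00344 to 0.924 and 0.00327 to 0.937 over the alternatives), and with the local background the second difference was -0.06. Col10a1, a chain known from growth plate cartilage, read 24.5 and 20.6, then 16.9, 18.6 and 24.1, then 8.4, 14.7 and 10. It fell in tumours against non-tumour tissue (-0.22 ± 0.04, adjusted p = 0.0135) and against normal diet (-0.26 ± 0.05, adjusted p = 0.01). The first was not called with the mouse as a block (0.0506; range 0.00512 to 0.978, and 0.0106 as the log2 fold change with the local background) nor the second without normal diet 117 (0.0756; range 0.00325 to 0.576).

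Col14a1, which coats collagen fibrils, and Col15a1 and Col18a1, which sit at basement membranes, were read next, with Col9a3. Col14a1 was at 153.6 and 139.9 on normal diet and between 170.1 and 224.2 in all high fat diet samples, and it was called in tumour against normal diet (log2 fold change 0.54 ± 0.13, adjusted p = 0.023, intensity ratio 1.31). Col15a1 was at 6.1 and 6.8 on normal diet, 8.3 to 9.9 in non-tumour tissue and 10 to 15.9 in tumours, called likewise (0.15 ± 0.04, adjusted p = 0.0206, ratio 1.88). Col9a3, a cartilage chain, was at 37.1 and 35.0 on normal diet and between 23.9 and 28.3 in the high fat diet samples, called lower in tumour against normal diet (-0.18 ± 0.05, adjusted p = 0.0408). For these 3 genes normal diet and high fat diet samples did not overlap, and each call ended without either normal diet array: Col14a1 at 0.103 (117) and 0.123 (120), Col15a1 at 0.125 and 0.0658 and Col9a3 at 0.154 and 0.166. Col14a1 was also not called without tumour 117 (0.0591) or on the deposited values (log2 fold change 0.38, adjusted p = 0.124). Nor was Col9a3 called without non-tumour 117 (0.0645), 186 (0.0664) or 1 (0.0572) or tumour 186 (0.0864) or 1 (0.0952). The ranges over the alternatives were 0.00889 to 0.601, 0.00538 to 0.917 and 0.00738 to 0.563. Col18a1, the source of endostatin, was at 674.0 and 508.1 on normal diet and between 330.8 and 428.5 elsewhere, without a call (tumour against normal diet -0.29 ± 0.10, adjusted p = 0.0697). It passed the threshold without normal diet 120 (0.0171), over a range of 0.0157 to 0.927.

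Col20a1, a collagen of the fibril-associated family, had the widest intensity ratio of the collagens listed on all arrays. Its kept probe read 5.8 and 4.6 on normal diet, 24.1, 34.9 and 29.5 in non-tumour tissue and 84.0, 92.8 and 123.9 in tumours. The groups did not overlap, with ratios of 5.67 for non-tumour against normal diet, 3.40 for tumour against non-tumour and 19.3 for tumour against normal diet. The log2 fold changes were 0.58 ± 0.10 (adjusted p = 0.0376), 1.01 ± 0.09 (adjusted p = 0.000895) and 1.58 ± 0.10 (adjusted p = 0.000296). The call for non-tumour against normal diet ended without normal diet 117 (0.19) or 120 (0.196), non-tumour 117 (0.0716), 186 (0.0925) or 1 (0.0849), or tumour 117 (0.0576), over a range of 0.000749 to 0.999. A second probe of Col20a1 did not follow this. It read 10.1 and 9.2 on normal diet, 8.0, 7.8 and 8.9 in non-tumour tissue and 5.9, 8.5 and 9.6 in tumours. Its log2 fold changes were -0.03, -0.01 and -0.04 in the same order, and none was called (adjusted p = 0.632, 0.84 and 0.359 over 17890 probes). The array table assigns the 2 probes to different RefSeq transcripts of the gene, so the Col20a1 values above are those of 1 probe.

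The other 11 genes with several probes showed milder disagreement. The second Col3a1 probe, dim at 4.6 to 17.5, was called in tumour against normal diet (log2 fold change 0.23, adjusted p = 0.0122) and not in tumour against non-tumour (0.14, adjusted p = 0.0538) or non-tumour against normal diet (0.09, adjusted p = 0.315). For Col8a1, a partner of Col8a2, the second probe had its top value, 31.2, in the tumour of mouse 186, as the kept probe did (30.1), and neither was called. Another probe of Mmp19 was called lower in tumour against non-tumour tissue (-0.29, adjusted p = 0.021) where the kept probe was not. The second Adamts16 probe was called lower in tumour against normal diet (-0.14, adjusted p = 0.0463), also unlike the kept probe. For Col27a1 the second probe had 0.18 (adjusted p = 0.0579) in tumour against non-tumour tissue and the kept one -0.05 (adjusted p = 0.735), neither called. No probe of Adamts3, Col4a4, Col6a4, Loxl3, Loxl4 or Mmp28 was called in any comparison.

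**Figure D3:**
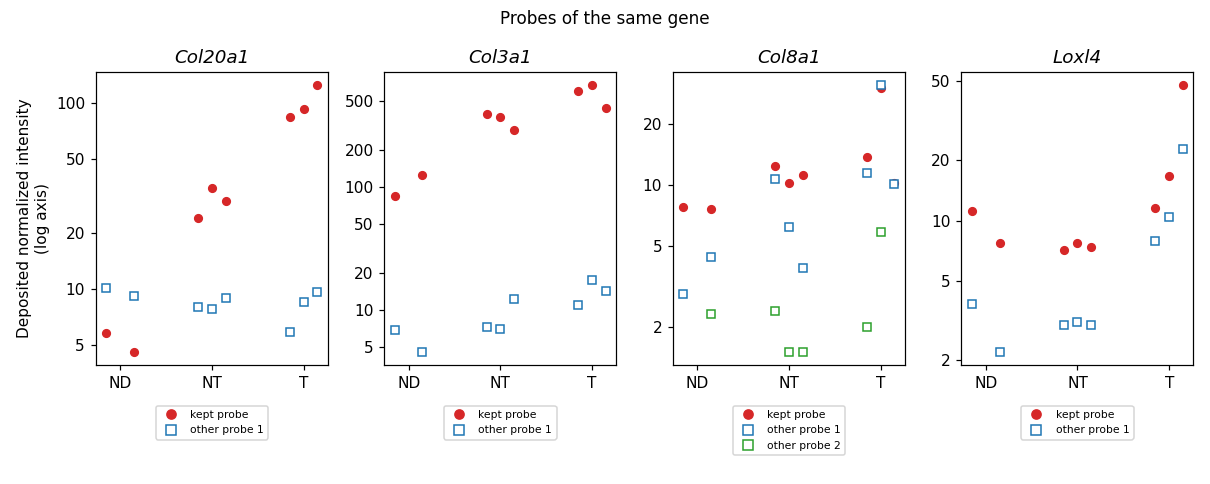
Deposited normalized intensity (vertical log axis) of each probe of Col20a1, Col3a1, Col8a1 and Loxl4 by array on normal diet (ND), in non-tumour (NT) and tumour tissue (T). Filled circles are the probe kept for the gene and open squares its other probes, and a probe not listed on an array has no point. The second Col20a1 probe stays between 5.9 and 10.1 while the kept probe spans 4.6 to 123.9, and the Loxl4 probes are both highest in the tumour of mouse 1.

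Among the metalloproteinases, Mmp14 and Mmp11 rose in tumours against non-tumour tissue, and Mmp12, Mmp13 and Mmp14 rose in tumours against normal diet liver. None was called lower by limma in any comparison fitted without the mouse block, where 2 had an unadjusted p below 0.05 in tumour against non-tumour tissue and 0 in each of the others; with the block Mmp19 was called lower in tumours (adjusted p = 0.0193, over a range of 0.0193 to 0.883). The 250 bases before the RefSeq starts of Mmp12, Mmp13 and Mmp14 are shown since these 3 genes rose in the same comparison, with capitals for the AP-1 motif TGANTCA, the CCAAT box, the GC box GGGCGG and the TATA letters TATAAA on either strand. Mmp12 has a pair of annotated starts. All lie on the plus strand, at chr9:7344147-7344396 and chr9:7347124-7347373 (Mmp12), chr9:7272264-7272513 (Mmp13) and chr14:54431348-54431597 (Mmp14).
Mmp12, first start: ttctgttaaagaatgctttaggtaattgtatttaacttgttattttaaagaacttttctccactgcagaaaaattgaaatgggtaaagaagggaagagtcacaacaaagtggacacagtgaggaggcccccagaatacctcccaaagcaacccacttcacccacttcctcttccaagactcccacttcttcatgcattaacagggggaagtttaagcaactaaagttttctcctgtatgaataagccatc
Mmp12, second start: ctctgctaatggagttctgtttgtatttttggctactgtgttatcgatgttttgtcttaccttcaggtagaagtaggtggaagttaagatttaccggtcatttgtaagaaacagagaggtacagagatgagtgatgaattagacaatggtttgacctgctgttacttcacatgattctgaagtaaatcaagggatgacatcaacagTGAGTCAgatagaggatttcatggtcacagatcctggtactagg
Mmp13: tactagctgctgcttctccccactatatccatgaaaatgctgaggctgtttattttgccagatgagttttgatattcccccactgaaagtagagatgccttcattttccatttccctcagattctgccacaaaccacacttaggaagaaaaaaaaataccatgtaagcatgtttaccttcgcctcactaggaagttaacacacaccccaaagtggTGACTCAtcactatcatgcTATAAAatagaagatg
Mmp14: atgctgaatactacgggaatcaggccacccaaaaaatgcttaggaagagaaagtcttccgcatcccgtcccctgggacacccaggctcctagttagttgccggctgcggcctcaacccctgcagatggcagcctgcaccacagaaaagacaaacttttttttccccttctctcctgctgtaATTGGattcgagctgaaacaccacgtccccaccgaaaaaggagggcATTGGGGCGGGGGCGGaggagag
An AP-1 match stands 35 bases before the start of Mmp13 and 44 bases before the second start of Mmp12, and TGANTCA was not among the letters of the Mmp14 window. The motif was not particular to genes that rose. It was also in windows of Mmp10, Mmp1b, Mmp3, Mmp7 and Col6a1, which were tested and not called, and of Mmp1a and Mmp20, which were not tested.

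Mmp14, a membrane-bound protease that cuts fibrillar collagen and activates pro-Mmp2, read 23.6 and 20.3 on normal diet, 26.0, 22.8 and 32.3 in non-tumour tissue and 43.8, 63.2 and 88.5 in tumours. All tumours were above all other samples. The log2 fold change was 0.62 ± 0.12 (adjusted p = 0.0131, intensity ratio 2.41) against non-tumour tissue and 0.74 ± 0.14 (adjusted p = 0.00993, ratio 2.97) against normal diet liver. The second ended without normal diet 117 (0.0618) or 120 (0.0679), over a range of 0.00191 to 0.285. Mmp2, the gelatinase that Mmp14 activates, was at 7.8 to 18.9 over all arrays and was not called.

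Mmp12, the macrophage elastase, had the widest intensity ratio of the metalloproteinases listed on all arrays. It was at 4.4 and 4.9 on normal diet, 30.8, 72.4 and 35.6 in non-tumour tissue and 39.7, 42.3 and 55.3 in tumours. All high fat diet samples were above normal diet, while tumour and non-tumour tissue overlapped. Tumour against normal diet was called (log2 fold change 0.88 ± 0.19, adjusted p = 0.0176, ratio 9.84) and non-tumour against normal diet was not (0.86 ± 0.19, adjusted p = 0.0673, ratio 9.95). The first ended without normal diet 117 (0.101) or 120 (0.0911), over a range of 0.000208 to 0.153, and the second passed without non-tumour 186 (0.0297), over a range of 0.00197 to 0.827. The summed intensity of 22 macrophage and Kupffer cell markers was 2518.5 to 3220.6 on normal diet, 4002.2 to 4762.8 in non-tumour tissue and 3014.9 to 4132 in tumours. Of the 22 tested, 3 were higher and 0 lower in non-tumour against normal diet (limma, with 2 lower at an unadjusted p below 0.05). That is 13.6%, beside 3.84% of all genes. In tumour against normal diet 9 were higher and 4 lower (59.1%, beside 27.8% of all genes). In tumour against non-tumour 3 were higher and 3 lower (27.3%, beside 25.4% of all genes), and none of the 22 was unlisted on all arrays. Their part in the Mmp12 values was not tested.

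Mmp13, the main rodent interstitial collagenase and the neighbour of Mmp12, was not listed on either normal diet array, read 5.2, 7.1 and 3.3 in non-tumour tissue and 7.3, 9.2 and 7.9 in tumours. Every tumour lay above every non-tumour sample, all of them dim. Tumour against normal diet was called (adjusted p = 0.00844), at least 1.14-fold higher, offset included, when the normal diet group is set at the dimmest listed probe of each array. Mmp13 entered the tests only through the high fat diet groups, where it is higher, so that its call is no independent sign of a difference. With arrays scaled to the same median it was not called (adjusted p = 0.136). Without normal diet 117 the adjusted p was 0.061, over a range of 0.000346 to 0.805. Mmp11, known as stromelysin-3, was as dim, at 4.2 and 5.1, then 4.2, 2.1 and 3.3, then 5.5, 7.2 and 6.8. Its tumour against non-tumour difference (log2 fold change 0.10 ± 0.03, adjusted p = 0.0343, intensity ratio 2.03) ended when mouse was added as a block (0.101), and also without tumour 117 (0.0802), 186 (0.0626) or 1 (0.0881) or non-tumour 186 (0.1) or 1 (0.0957), over a range of 0.00606 to 0.714. Mmp19 read 363.9 and 248.8, then 246.1, 224.1 and 319.5, then 154.3, 135.9 and 219.1. In each mouse its tumour was below its non-tumour tissue, and it was called lower with the mouse as a block (adjusted p = 0.0193, over a range of 0.0193 to 0.883), not without (log2 fold change -0.41 ± 0.17, adjusted p = 0.131). The other 10 metalloproteinases tested (Mmp2 among them) were called nowhere, and ran from 1.3 to 26.3 where listed.

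Timp1, the inducible inhibitor, was the Timp gene with a call. It was listed at 2.0 on 1 of 2 normal diet arrays, read 12.6, 21.0 and 14.3 in non-tumour tissue and 28.9, 37.0 and 78.9 in tumours. The 3 groups did not overlap. Tumour against normal diet was called (log2 fold change 0.98 ± 0.20, adjusted p = 0.0142), tumour against non-tumour (0.58 ± 0.18, adjusted p = 0.0609, intensity ratio 3.02) and non-tumour against normal diet (0.40 ± 0.20, adjusted p = 0.336) were not. With normal diet at or near the blank level the size of that fold change is approximate. Timp1 too entered the tests only through the high fat diet groups, so that its call is no independent sign of a difference. The call ended without normal diet 117 (0.0885) or 120 (0.0775), over a range of 9.63e-05 to 0.311. Tumour against non-tumour passed the threshold without tumour 1 (0.0187), over a range of 0.0187 to 0.606. Timp3, which binds the matrix itself, read 44.8 and 64.8, then 105.5, 63.4 and 44.5, then 103.5, 158.0 and 92.0, with no call (tumour against normal diet 0.82 ± 0.27, adjusted p = 0.0632; 0.0462 without non-tumour 117, over a range of 0.0233 to 0.569). Timp2, a cofactor of Mmp14 in activating Mmp2, was at 7.9 and 7.0, then 11.1, 11.9 and 9.4, then 13.5, 32.2 and 6.6, with no call. The start region of Timp1, plus strand, chrX:20869916-20870165, is shown for comparison with the proteases, with the same letters in capitals.
Timp1: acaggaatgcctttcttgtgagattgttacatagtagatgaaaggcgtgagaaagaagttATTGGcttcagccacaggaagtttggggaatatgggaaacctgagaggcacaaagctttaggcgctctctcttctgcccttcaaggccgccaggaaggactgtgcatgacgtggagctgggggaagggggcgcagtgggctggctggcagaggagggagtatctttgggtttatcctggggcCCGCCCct

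Of the lysyl oxidases Loxl2, which cross-links collagen, rose in tumours. It read 3.0 and 3.6 on normal diet, 6.3, 8.2 and 6.2 in non-tumour tissue and 10.1, 11 and 11.3 in tumours. The groups did not overlap, although all values were dim. The log2 fold change was 0.21 ± 0.03 (adjusted p = 0.00471, intensity ratio 3.27) against normal diet and 0.10 ± 0.03 (adjusted p = 0.0472, ratio 1.57) against non-tumour tissue. The latter ended when mouse was added as a block (0.159), and also without normal diet 117 (0.0745) or 120 (0.0732), non-tumour 117 (0.126) or 1 (0.135), or tumour 117 (0.123) or 1 (0.116), over a range of 0.0148 to 0.741. Loxl4 was at 11.1 and 7.7, then 7.1, 7.7 and 7.4, then 11.6, 16.8 and 47.6. All tumours were above the other samples with the tumour of mouse 1 far above, and the difference to non-tumour tissue was not called (0.39 ± 0.17, adjusted p = 0.154; 0.017 without tumour 1, over a range of 0.017 to 0.79). Loxl1 was at 5.6 and 10.5, then 17.5, 14.9 and 12.6, then 16.5, 21.3 and 8.7 and Loxl3 ran from 126.6 to 151.9, neither called, although Loxl1 in tumour against normal diet was past the threshold without tumour 1 (0.036, over a range of 0.036 to 0.968).

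Among the ADAMTS proteases Adamts5 and Adamts4, the main aggrecan-cutting enzymes, were called in opposite directions. Adamts5 read 14.8 and 17.1 on normal diet, 11.5, 18.1 and 13.2 in non-tumour tissue and 26.6, 32.3 and 32.9 in tumours. All tumours lay above all other samples (log2 fold change 0.35 ± 0.05, adjusted p = 0.00442, intensity ratio 2.14 against non-tumour; 0.32 ± 0.06, adjusted p = 0.00828, ratio 1.92 against normal diet). The second call ended without normal diet 117 (0.067), over a range of 0.00251 to 0.968, and with the local background the difference to non-tumour tissue was -0.00112. Adamts4 read 62.2 and 73.3, then 46.8, 38.6 and 45.1, then 30.5, 35.1 and 35.0. Its groups did not overlap and stood in the order normal diet, non-tumour, tumour from the highest. It fell in tumour against normal diet (-0.45 ± 0.06, adjusted p = 0.0027, ratio 0.495) and the differences between neighbouring groups were not called (tumour against non-tumour -0.17 ± 0.05, adjusted p = 0.0578; non-tumour against normal diet -0.28 ± 0.06, adjusted p = 0.0572). The tumour against non-tumour difference passed without normal diet 117 (0.031) or 120 (0.0309), over a range of 0.0309 to 0.606.

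Adamts17 was at 24.3 and 26.5 on normal diet, 18.2, 15.5 and 19.4 in non-tumour tissue and 27.8, 26.5 and 25.6 in tumours, so that non-tumour tissue stood lowest. Tumour against non-tumour was called (log2 fold change 0.19 ± 0.04, adjusted p = 0.02), and ended without non-tumour 117 (0.0506) or 186 (0.0654), over a range of 0.013 to 0.644. Adamts9, listed on neither normal diet array, at 2.1 and 2.4 on 2 of 3 non-tumour arrays and at 3.6, 4.9 and 3.4 in tumours, entered the tests only through the tumours, where it is highest, so that its call is no independent sign of a difference. It was called in tumour against normal diet (adjusted p = 0.0427, at least 1.06-fold higher with the offset included), but its log2 fold change was -0.04 when arrays were scaled to the same median. That call ended when any 1 array was left out (0.0514 to 0.192 over the 8), over a range of 0.00391 to 0.644. Adamts1, the neighbour of Adamts5, read 74.9 and 60.0, then 57.0, 91.7 and 93.2, then 60.4, 138.3 and 169.6, with no call; tumour against normal diet was past the threshold without tumour 117 (0.0138, over a range of 0.0138 to 0.733). Adamts13, which cuts von Willebrand factor, was at 2.5 to 3.9 where listed, with no call.

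**Figure D4:**
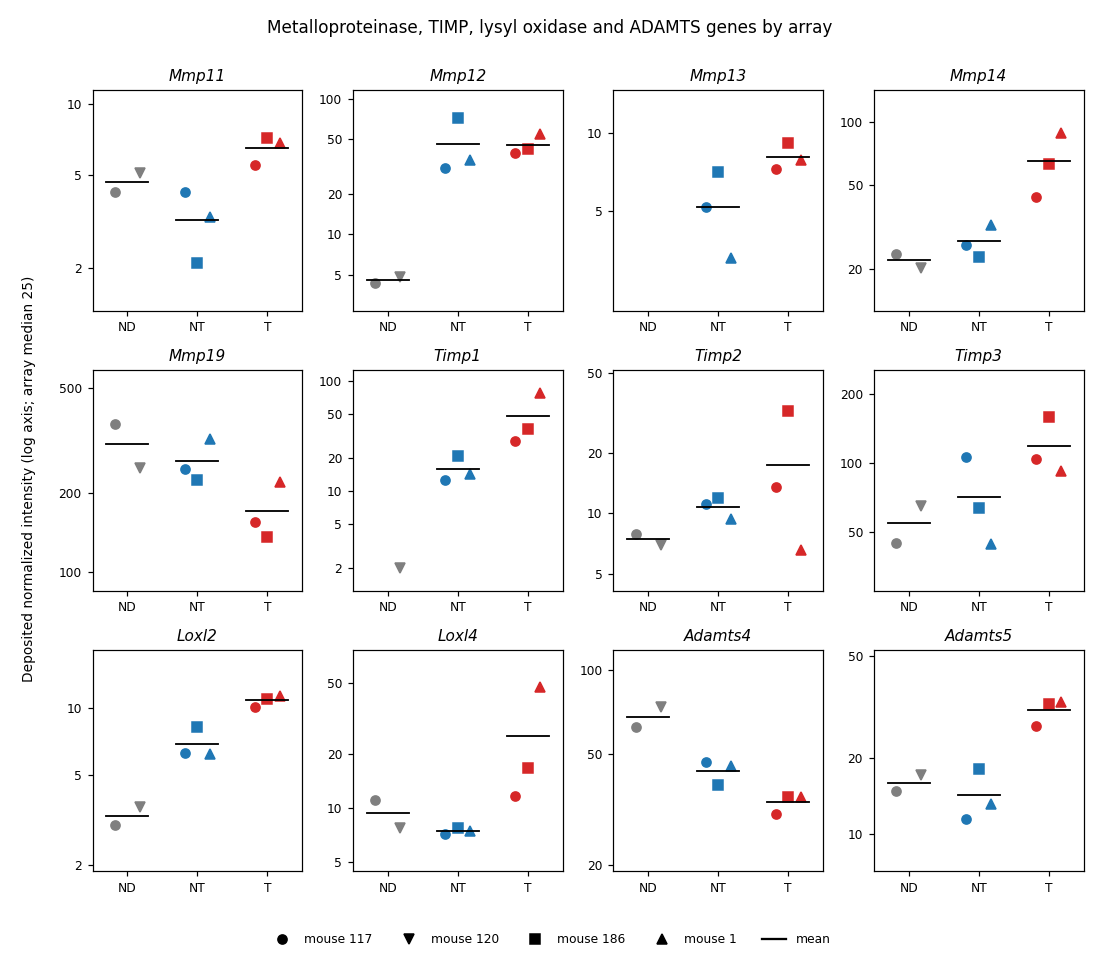
Deposited normalized intensity (vertical log axis, array median 25) of 12 metalloproteinase, Timp, lysyl oxidase and ADAMTS genes on normal diet (ND, grey), in non-tumour (NT, blue) and tumour tissue (T, red). Each point is 1 array, its shape gives the mouse number (117 on normal diet is another animal), bars are means where all arrays of the group list the gene, and arrays that do not list a gene have no point. Mmp14, Adamts5 and Loxl2 are higher in all 3 tumours than in any other sample, Mmp12 is higher in all high fat diet samples than on normal diet, and Adamts4 steps down from normal diet to tumour.

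Calls of neighbouring members were set side by side. Pairs that hold Col19a1, Mmp1a, Mmp20, Col6a6 or Col6a4 could not share a call, since these genes were not tested. How often neighbouring genes share a call over the whole array was not computed. Of 17 pairs of members next to each other in the RefSeq annotation (28 members), Col3a1 with Col5a2 and Mmp13 with Mmp12 were both called higher in tumour against normal diet, and the first pair also in tumour against non-tumour tissue. In Col4a1 with Col4a2, Col4a4 with Col4a3, Col6a2 with Col6a1, Mmp12 with Mmp1b and Adamts1 with Adamts5 a call was made for 1 gene of the pair. Promoter windows were found for 64 of the 91 members in the RefSeq set (GRCm38.p6), 70 windows of 250 bases before to 50 after a start. On either strand TGANTCA was in 12.9% of the member windows and 7.81% of all 32851 windows, TATAAA in 22.9% and 13.6%, GGGCGG in 57.1% and 35.7% and CCAAT in 31.4% and 37.4%. These shares describe letters in the windows and carry no test.

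The other genes of the pathway were read from lists that the members do not belong to. Over all genes 25.4% were called in tumour against non-tumour tissue, 3.84% in non-tumour against normal diet and 27.8% in tumour against normal diet. Of 24 genes of collagen synthesis and processing 8 were higher and 3 lower in tumour against non-tumour tissue (45.8%). The counts were 1 and 1 in non-tumour against normal diet (8.33%) and 8 and 1 in tumour against normal diet (37.5%). The leading ones against non-tumour tissue were Ppib, a prolyl isomerase of the procollagen 3-hydroxylation complex (log2 fold change 1.10 ± 0.05, adjusted p = 0.000192), and Kdelr3, a retrieval receptor of the secretory pathway (0.98 ± 0.15, adjusted p = 0.00499). Kdelr3 was near the blank level outside tumours, at 3.4, 4 and 2.7 in non-tumour tissue and 1.6 on the normal diet array that listed it. Its tumours read 38.6, 37.3 and 78.2. Ppib was at 1790.3 and 1715.5 on normal diet, 1012.3, 1114 and 1036.4 in non-tumour tissue and 1822.5, 1689.8 and 2097.2 in tumours. Its tumour against normal diet difference was called (0.60 ± 0.06, adjusted p = 0.00111), but not on the deposited values (0.09, adjusted p = 0.701). Ppib was lower in non-tumour against normal diet (-0.50 ± 0.06, adjusted p = 0.0124), a call that ended without normal diet 117 (0.0921) or 120 (0.0865), over a range of 0.0114 to 0.999. Of 18 basement membrane genes 5 were higher and 3 lower in tumour against non-tumour tissue (44.4%). In tumour against normal diet 4 were higher and 1 lower (27.8%, as over all genes). Nid1, the linker between laminin and type IV collagen, went from 99.4 and 93.4 on normal diet and 165.7 to 235.0 in non-tumour tissue to 1526.0, 928.0 and 2189.5 in tumours (2.84 ± 0.26, adjusted p = 0.000924 against non-tumour tissue). Lamb3, a laminin chain, was at 20.8 and 15.5 on normal diet, 50, 45.8 and 78 in non-tumour tissue and 24.5, 20.6 and 17.6 in tumours, so that non-tumour tissue stood apart. It was lower in tumour against non-tumour tissue (-0.63 ± 0.11, adjusted p = 0.00784), higher in non-tumour against normal diet (0.71 ± 0.12, adjusted p = 0.0339) and not called in tumour against normal diet (0.08, adjusted p = 0.689). The second call ended without normal diet 117 (0.157) or 120 (0.195) or non-tumour 117 (0.0738) or 186 (0.058), over a range of 0.00763 to 0.361.

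Of 23 genes of TGF beta and CCN signalling 6 were higher and 1 lower in tumour against non-tumour tissue (30.4%, beside 25.4% of all genes). In non-tumour against normal diet the counts were 0 and 0 (limma, with 2 higher and 3 lower at an unadjusted p below 0.05), beside 3.84% of all genes. In tumour against normal diet they were 2 and 1 (13%, beside 27.8% of all genes). Those called against non-tumour tissue were led by Inhba, a subunit of activin (1.06 ± 0.23, adjusted p = 0.0186), and Tgfbr2, the type II TGF beta receptor (0.89 ± 0.18, adjusted p = 0.0136). The Inhba call ended without non-tumour 117 (0.061), 186 (0.0517) or 1 (0.0544) or tumour 1 (0.0526), over a range of 0.00254 to 0.879. Of 28 other matrix proteins 3 were higher and 3 lower in tumour against non-tumour tissue (21.4%) and 5 and 2 in tumour against normal diet (25%). Against non-tumour tissue Sparc, a collagen-binding protein (1.24 ± 0.14, adjusted p = 0.00175), and Thbs2, a thrombospondin (1.22 ± 0.11, adjusted p = 0.00095), led. Of 18 collagen receptors and integrins 5 and 1 were called against non-tumour tissue (33.3%) and 7 and 3 against normal diet (55.6%). Against non-tumour tissue Itga6 (0.93 ± 0.09, adjusted p = 0.000895) and Itgb1 (0.50 ± 0.11, adjusted p = 0.0196), laminin and collagen receptor chains, led. The Itgb1 call ended when mouse was added as a block (0.0592), on the deposited values (0.194) and with arrays scaled to the same median (0.0913). It also ended without non-tumour 117 (0.0539), 186 (0.0588) or 1 (0.0623), over a range of 0.0017 to 0.947.

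Of 26 genes of the plasminogen system and other matrix proteases 6 were higher and 2 lower in tumour against non-tumour tissue (30.8%, beside 25.4% of all genes). In tumour against normal diet 11 were higher and 0 lower (limma, with 2 lower at an unadjusted p below 0.05). That is 42.3%, beside 27.8% of all genes. Against non-tumour tissue Serpinf2, the plasmin inhibitor, led (1.94 ± 0.06, adjusted p = 5.15e-05), followed by Plat, a plasminogen activator (1.61 ± 0.16, adjusted p = 0.00123). The Plat value is that of its brightest probe, which was not listed on every array. Plat therefore drops out when only genes listed on all 8 arrays are kept. With the local background its difference was not called (0.80, adjusted p = 0.233, over a range of 6.97e-05 to 0.233).

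Markers of cell types that liver tissue can hold were read from lists of their own, beside 25.4% of all genes called in tumour against non-tumour tissue. Of 24 stellate cell and fibroblast markers 3 were higher and 4 lower in tumour against non-tumour tissue, with Vim, an intermediate filament gene, higher (1.22 ± 0.18, adjusted p = 0.00495) and Lrat, the retinol-storing enzyme of quiescent stellate cells, lower (-0.86 ± 0.06, adjusted p = 0.000423). Against normal diet 4 were higher and 3 lower in tumours (29.2%, beside 27.8% of all genes). Of 20 endothelial markers 5 were higher and 1 lower against non-tumour tissue, with Cd34 higher (0.75 ± 0.13, adjusted p = 0.00739) and Clec1b lower (-0.68 ± 0.09, adjusted p = 0.00341). Clec1b was higher in non-tumour against normal diet (0.67 ± 0.10, adjusted p = 0.0256), a call that ended without either normal diet array. It was not called in tumour against normal diet (-0.01, adjusted p = 0.939). The summed intensity of the endothelial markers was 1611.5 to 1889.3 on normal diet, 1633.4 to 1786.5 in non-tumour tissue and 1350.2 to 1881.9 in tumours. The macrophage and Kupffer cell list was split in tumours against non-tumour tissue, with a median of -0.12. Cd14 (2.10 ± 0.25, adjusted p = 0.00203) and Cd9 (1.91 ± 0.15, adjusted p = 0.00061) were higher, and the Kupffer cell genes Clec4f (-1.39 ± 0.24, adjusted p = 0.00801, and 0.059 in the blocked fit, over a range of 0.00125 to 0.42) and Cd5l (-1.005 ± 0.15, adjusted p = 0.00507) were lower. Cd5l was higher in non-tumour against normal diet (0.94, adjusted p = 0.0393), a call that ended without either normal diet array. Of 18 hepatocyte markers 2 were higher and 10 lower in tumour against non-tumour tissue, and their summed intensity was 275301 to 283187 on normal diet, 210683 to 221620 in non-tumour tissue and 182959 to 194301 in tumours. Of 13 cholangiocyte markers 4 were higher and 1 lower, with sums of 247.1 to 287, 286.9 to 448.8 and 2819.5 to 5294.6 in the 3 groups. Tspan8 alone made up 70.9% to 88.8% of the tumour sums, and the others summed to 235.4 to 263.6, 275 to 385.2 and 591.7 to 821.4. Of 13 neutrophil markers 2 were higher and 0 lower (limma, with 2 lower at an unadjusted p below 0.05), with sums of 402 to 469.4, 839.3 to 1027.8 and 3835.1 to 7539.7. Lcn2 alone made up 89.2% to 91.9% of the tumour sums, and the others summed to 364 to 420.9, 493.6 to 525.6 and 412.8 to 612.1. Of 13 tested mesothelial and smooth muscle markers 2 were higher and 1 lower, with sums of 2270.2 to 2711.1, 3281.4 to 3851.6 and 3183.6 to 5444.1. Krt8, which hepatocytes also express, made up 75.7% to 90% of these sums, and the others summed to 374.4 to 423.8, 383.6 to 401.6 and 653.3 to 777.4. Of 10 chondrocyte and bone markers 0 were higher and 1 lower (limma, with 0 higher at an unadjusted p below 0.05), with sums of 1085.1 to 1148.6, 919.3 to 1041.1 and 815.7 to 969.2, and Matn3 and Ibsp were listed on no array. Of 12 T, NK and B cell markers none was called by limma, 1 of them having an unadjusted p below 0.05, with sums of 87.5 to 93.5, 86.2 to 92.5 and 73.7 to 111.4. The part of these cell types in the collagen and protease values was not tested.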

How the data were processed

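Total RNA of 8 liver samples was amplified, coupled to Cy5 and hybridised to single-colour arrays, per the labels' protocols. The deposited values are spot intensity from the scanner and the authors' normalized intensity, a linear scale with an array median of 25 in which probes near the blank spots have no value; how it was normalized is not given in the sources used here, and as recomputed each array's spot medians, less the mean of its blanks, were divided by a single factor. Levels in the text are the deposited normalized intensity. For the tests, scanner spot medians were corrected by limma's normexp (negative controls: 2736 blank spots; offset: 50), then quantile normalized on the log2 scale (limma 3.58.1, R 4.3.3). Of 23473 probes 20690 had 1 gene symbol and 2783 none; all 91 member symbols equal the current RefSeq symbol of their gene number. Testing required that every array of some group list the gene (16800 of 19321).

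Group means of all 8 arrays were fitted together (5 residual and 1.49 prior degrees of freedom), with 3 comparisons and 2-sided moderated tests, adjusted by Benjamini-Hochberg over all genes tested and called below 0.05. The number of arrays limits the precision. The members and gene lists were chosen with earlier results of these data known. Named members were, per comparison, the 12 largest rises and falls among those called plus 32 genes named whether called or not (of these, Mmp15 and Adamts2 are not analysed here); of each other list up to 4 called genes with the largest change could be named, and those given are the leading ones in tumour against non-tumour tissue. Mouse numbers pair tumour and non-tumour tissue per the labels: deviations from the group means correlated at 0.443, 0.148 and 0.167 within mice and at -0.275 to 0.028 between mice. The methods were tested on simulated data. Alternatives were the background, offset, normalization, values, filter, probe rule, samples in the fit, moderation, the mouse as a block and leaving out each array. Promoter windows and gene order come from RefSeq (GRCm38.p6).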

Additional observations from a re-analysis of the deposited data

How the results depend on the processing

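Over 110 differences of named genes and 2014 alternatives, 1730 kept direction and side of the threshold, 221 fell short of it, 57 passed it newly and 6 reversed. With the local background in place of the blank spots the member counts were 0 higher and 0 lower in tumour against non-tumour, 0 higher in non-tumour against normal diet, and 1 higher and 0 lower in tumour against normal diet; under it Adamts5 (-0.00112) and Col10a1 (0.0106) reversed in tumour against non-tumour and Col8a2 (-0.0574) in tumour against normal diet. Scaling to the same median reversed Adamts9 (-0.0421) and Mmp11 (-0.0386) in tumour against normal diet and gave 10 members lower there; Plat reversed (-0.0259) in tumour against non-tumour when only genes listed on all 8 arrays were kept. In non-tumour against normal diet the higher count of 2 was 8 with the blank mean subtracted, 4 with an offset of 16, 5 with the same median, 7 on the authors' values, 5 with the compared groups alone and 5 with an intensity trend, and the lower count of 0 was 1 with an offset of 16. Leaving out 1 array at a time gave 8 to 12 higher and 2 to 4 lower in tumour against non-tumour, 0 to 4 higher in non-tumour against normal diet, and 6 to 22 higher and 2 to 4 lower in tumour against normal diet; where this left 1 normal diet array, it was assumed to vary like the other groups. With the mouse as a replicate block tumour against non-tumour had 9 higher, all of them among the 11, and 2 lower, 1 of them among the 3. Over all genes, calls in the higher direction were 47.1%, 47.1% and 46.2% of calls in the order given, and 37.3%, 77.3% and 39% with the same median, 40.6%, 41% and 32.1% on the authors' values and 76%, 0% and 59.9% with the local background; the authors' values moved the median of all genes to -0.12 in non-tumour and -0.20 in tumour against normal diet. The cause of these differences was not tested. A slide or scan date block was not run, since no such field was used here. Signals close to the blank spots limit Mmp11, Mmp13, Adamts9, Loxl2 and Col4a3 most.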
